A study of Mus musculus with 5 samples.

Results

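T and natural killer (NK) cell genes were examined in bulk RNA-seq of 5 liver tumours from female C57BL/6N mice, 2 Control and 3 with late Prox1 overexpression (Prox1 OE). The 10 genes Cd3e, Cd3g, Trac, Cd4, Cd8a, Foxp3, Gzmb, Gzma, Nkg7 and Ncr1 were taken by symbol, as receptor, coreceptor, regulatory, granule and NK cell genes, from the 55397 genes listed. All mice were injected into the tail vein at 8 weeks of age with a Sleeping Beauty transposase plasmid and with transposon plasmids in which the EF1a promoter drives AKT and NICD, the intracellular domain of a Notch receptor, the latter together with the doxycycline-controlled activator rtTA. This model gives tumours that resemble cholangiocarcinoma (CCA), a malignancy of the biliary tree. Prox1 OE mice also received pT3-Tre-FLAG-mmProx1-IRES-GFP and Control mice pT3-Tre-IRES-GFP, so that only the former switched on mouse Prox1 when doxycycline food (6.25%) was given to both from day 21, for overexpression from week 3 to 4. Collection was at the end of that week or when a humane endpoint was reached, and the labels do not say which held for which tumour. The labels do not state that the tumours of a group came from separate mice, so p-values measure the spread between these samples.

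T cells recognise antigen through a receptor of alpha and beta chains (or gamma and delta chains) that signals through the CD3 proteins. The coreceptors CD4 and CD8 bind class II and class I antigen-presenting molecules and mark helper and cytotoxic T cells, and FOXP3 marks regulatory T cells that restrain the others. Cytotoxic T cells and NK cells kill by releasing granzymes from granules, and the healthy liver holds resident populations of both. The labels call the sequenced cells transformed hepatocytes, but whole dissected tumours were sequenced, so that infiltrating and neighbouring cells add RNA. In such bulk samples, a higher number of cells of a type and more RNA per cell cannot be told apart.

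The sequences before the start sites of 4 genes that were higher in Prox1 OE are shown, with the short motifs each holds, because these genes carry the calls described below. They were taken from the RefSeq promoter table (GRCm38.p6, the build of mm10), which held windows for 8 of the 10 genes. Letters in capitals mark TGTGGT, the core of RUNX sites, GTGTGA, a T-box core, or TGANTCA, an AP-1 site, on either strand, and no marked matches overlap. Bases inside the GENCODE gene were left out, and distances are counted from the RefSeq start site. That site lies 74 bases before the GENCODE start of Gzmb and 65 bases after that of Nkg7. Each is printed 5′ to 3′ on the strand of the gene.
Gzmb, chr14:56262335-56262584, minus strand: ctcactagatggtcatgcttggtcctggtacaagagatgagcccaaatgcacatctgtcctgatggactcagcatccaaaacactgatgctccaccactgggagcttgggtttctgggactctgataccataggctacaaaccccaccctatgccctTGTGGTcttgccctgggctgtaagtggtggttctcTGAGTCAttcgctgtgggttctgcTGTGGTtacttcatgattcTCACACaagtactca
Nkg7, chr7:43436888-43437072, plus strand: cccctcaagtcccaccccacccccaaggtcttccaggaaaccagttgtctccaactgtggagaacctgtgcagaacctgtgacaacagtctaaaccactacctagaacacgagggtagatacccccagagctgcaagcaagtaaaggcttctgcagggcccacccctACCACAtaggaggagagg
Cd8a, chr6:71373177-71373426, plus strand: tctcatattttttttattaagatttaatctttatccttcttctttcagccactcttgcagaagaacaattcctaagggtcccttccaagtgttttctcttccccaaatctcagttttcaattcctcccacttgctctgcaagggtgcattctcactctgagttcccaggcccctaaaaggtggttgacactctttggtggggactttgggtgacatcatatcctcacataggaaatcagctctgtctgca
Cd3g, chr9:44980432-44980681, minus strand: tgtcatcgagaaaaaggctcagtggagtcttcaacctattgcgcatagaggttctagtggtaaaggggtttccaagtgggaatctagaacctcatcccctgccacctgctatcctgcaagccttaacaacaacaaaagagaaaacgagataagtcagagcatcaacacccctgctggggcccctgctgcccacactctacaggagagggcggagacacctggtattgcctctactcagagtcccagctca
The Gzmb sequence held 4 matches. RUNX cores began 93 and 34 bases before the start site, the AP-1 site began 58 bases before it, and a T-box core on the other strand began 15 bases before it. The Nkg7 sequence held 1 match, a RUNX core on the other strand 83 bases before the start site. Cd8a and Cd3g held 0 matches. Over the full windows of 250 bases before the start site, the RUNX core was found in 4 of the 8 genes (Gzmb, Gzma, Nkg7 and Ncr1) and in 14% of all 32851 windows of that length. As Foxp3 and Ncr1 have 2 windows each and a match in either was counted, the share per gene is the like measure, and 15.9% of 27025 genes held the RUNX core in any window. The T-box core was found in 3 (Gzmb, Nkg7 and Ncr1, against 13.9% of genes and 12.3% of windows) and the AP-1 site in 1 (Gzmb, against 7.82% and 6.75%). A match of letters is a description and not evidence of binding.

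Values are normalised counts, meaning reads divided by a size factor of the library, and 1 read was worth 0.822 to 1.18 normalised counts. Libraries held 48740863 to 56629477 reads, and the 10 genes together took 330 and 269 of them in Control replicates 1 and 2, against 450, 568 and 632 in Prox1 OE replicates 1, 2 and 3. In CPM, the read rate that puts the libraries' totals on 1 scale, this was 6.26 and 4.98 in Control and 8.01, 11.7 and 11.2 in Prox1 OE. T and NK cell transcripts were thus scarce, and counting error is part of every value that follows. The overexpressed gene itself, Prox1, had 4153 and 4664 normalised counts in Control and 48090, 11113 and 8231 in Prox1 OE, so that replicate 1 stood apart from the other Prox1 OE libraries. With that spread its change of 1.90 on the log2 scale did not pass (limma adjusted p 0.061), although the groups did not overlap. It passed with edgeR (2.35, adjusted p 0.048), relative to pan-leukocyte genes (1.42, limma adjusted p 0.014), with the replicate block (2.39, limma adjusted p 0.0013) and without Prox1 OE replicate 1 or 3 (1.12 and 2.39), and did not pass with DESeq2 (adjusted p 0.066) or with no filter (0.11). Totals of reads overlapped between the groups.

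Some of the T and NK cell genes rose in tumours with Prox1 OE. Of the 10 genes, 8 had a mean of at least 10 normalised counts over the 5 libraries and were tested with limma on log2(normalised count + 1). Of these 8, 5 rose (Cd3e, Cd3g, Cd8a, Gzmb and Nkg7, adjusted p under 0.05 over all 17105 genes tested), 0 fell and 3 did not pass (Cd4, Trac and Gzma). The background was 17.1% of all genes tested called higher and 16.2% called lower, beside 62.5% and 0% of the 8. Gzmb, with a Control mean of 9.54, met the level for testing through Prox1 OE. With no filter on low genes, 4 of the 10 were called higher (Cd3g, Cd8a, Gzmb and Nkg7), beside 8.41% of the 28705 genes then tested. The median log2 fold change of the 8 was 1.29, beside -0.02 for all genes tested. Every Prox1 OE value lay above both Control values for 7 of the 10 genes, including 6 of the 8 tested, where 30.9% of all genes tested did so.

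**Figure D1:**
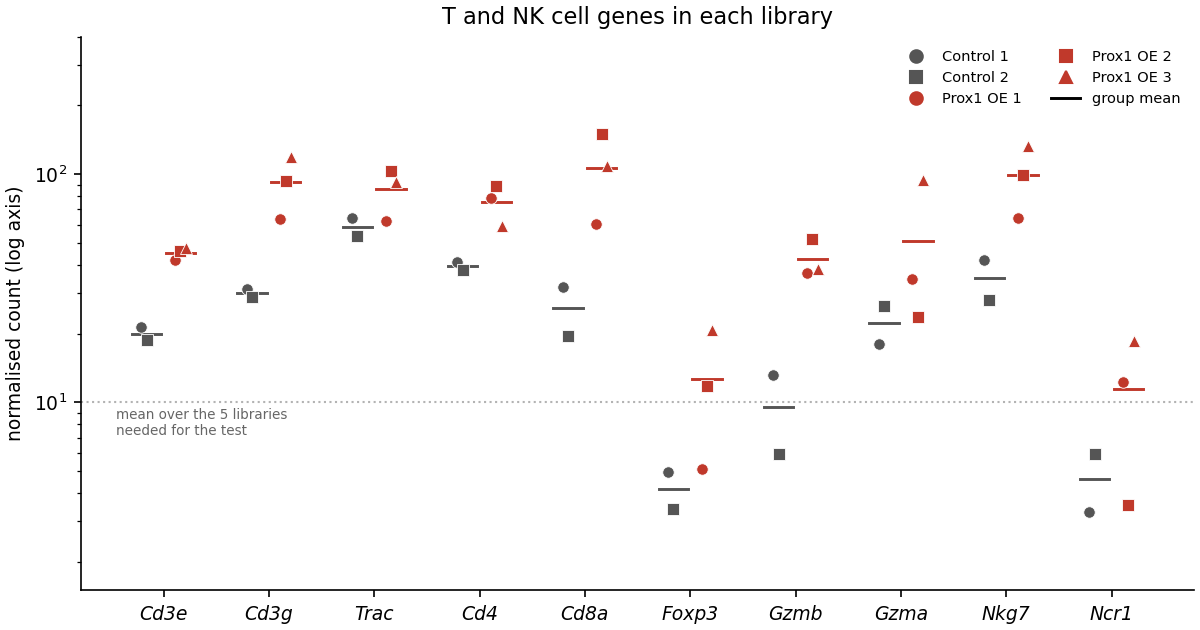
Normalised counts (log axis) of the 10 T and NK cell genes, with each point a library, grey for Control and red for Prox1 OE, and lines at the group means. Cd3e is tight within each group at 18.6 to 21.4 and 41.9 to 47.5, whereas Prox1 OE replicate 3 stands far above the others for Gzma at 93.7, and Foxp3 and Ncr1 lie near the dotted line at 10.

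The calls rested on few libraries. Without Prox1 OE replicate 1, which had the highest Prox1, Cd3e, Cd3g, Cd8a, Gzmb and Nkg7 were called, with 21.9% of all genes higher. Without Prox1 OE replicate 2, Gzmb alone was called (12.5% of all genes), and without Prox1 OE replicate 3, Cd3g, Cd4, Cd8a and Gzmb were (12.7%). Leaving out a Control library leaves 1, assumed to vary like the other group. Without Control replicate 1, Gzmb alone was called (3.98% of all genes), and without Control replicate 2, 0 of the 8 were called by limma (8.4%), with 4 at an unadjusted p under 0.05. All log2 fold changes of the 8 genes stayed above 0 in these fits. Scaling by the total count instead shifted the median of all genes to -0.44 and gave 1475 genes higher (8.62%) and 6833 lower (39.9%) in place of 2933 and 2769. Under it 4 of the 8 were called higher and Cd3e was not (0.72, limma adjusted p 0.12). When a mean of at least 50 was required, Cd3g, Cd8a and Nkg7 were called, with 19.9% of all genes higher.

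Cd3e and Cd3g encode CD3 epsilon and gamma, 2 of the signalling chains that carry the T cell receptor to the cell surface. Cd3e (ENSMUSG00000032093, mm10 chromosome 9, 44998740 to 45009627, minus strand) had 21.4 and 18.6 normalised counts in Control replicates 1 and 2 and 41.9, 46.0 and 47.5 in Prox1 OE replicates 1, 2 and 3. The groups were far apart relative to their spread, with the lowest Prox1 OE value 1.96 times the highest Control value. The change was 1.14 on the log2 scale (SE 0.31, limma adjusted p 0.029), on 22 to 41 reads per library. The call was lost in 7 of 15 alternatives, among them no filter on low genes (limma adjusted p 0.062), total-count scaling (0.12) and the replicate block (0.075). Its exons overlap Gm48719 on the other strand, and the libraries keep strand, but whether counting used it was not stated.

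Cd3g (ENSMUSG00000002033, chromosome 9, 44969572 to 44980431, minus strand) went from 31.2 and 28.8 normalised counts to 63.4, 93.2 and 119. The Control values lay close together and the Prox1 OE values spread over a wider range, all above Control. The change was 1.54 on the log2 scale (SE 0.34, limma adjusted p 0.013).

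Trac encodes the constant part of the T cell receptor alpha chain, which joins rearranged segments in mature alpha-beta T cells. Trac (ENSMUSG00000076928, chromosome 14, 54220521 to 54224206, plus strand, a T cell receptor constant gene) had 64.1 and 53.4 normalised counts in Control and 62.4, 103 and 92.6 in Prox1 OE. Prox1 OE replicate 1 lay within the Control range, so the groups overlapped. The log2 fold change of 0.52 (SE 0.30, limma adjusted p 0.23) did not pass the threshold. In the T cell receptor and CD3 list of 7 genes, 3 were called higher and 0 lower, with a median log2 fold change of 1.14, beside 17.1% and 16.2% of all genes. Relative to pan-leukocyte genes, Cd3g alone of the 7 was called higher, where 5.75% of all genes were. With the deposited scaling the calls were Cd3e, Cd3g and Cd3d, the delta chain, which changed by 1.20 (limma adjusted p 0.032). The call of Cd3d was lost with no filter (0.065), with total-count scaling (0.11), with the replicate block (0.051) and in 4 of the 5 leave-one-out fits, all but that without Prox1 OE replicate 1. Of the receptor beta constant genes, Trbc1 went from 18.9 ± 11.6 (SD, n = 2) to 60.0 ± 25.8 (SD, n = 3) and Trbc2 from 71.7 ± 5.5 (SD, n = 2) to 133 ± 35.8 (SD, n = 3). Neither passed, with limma adjusted p of 0.052 and 0.06. These 2 genes are close copies and their split is uncertain where reads were shared. Cd247, the zeta chain shared by T and NK cells, had values that overlapped (39.4 and 33.9 against 31.7, 44.8 and 42.8), with a log2 fold change of 0.10 (SE 0.32). Trbc1, Trbc2 and Cd247 were named after their values were seen.

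The coreceptors were taken next, since they separate helper from cytotoxic T cells. Cd8a (ENSMUSG00000053977, chromosome 6, 71373427 to 71379173, plus strand) had 32.0 and 19.5 normalised counts in Control and 60.3, 149.9 and 109 in Prox1 OE. Prox1 OE replicate 2 was the highest and replicate 1 the lowest of the Prox1 OE libraries, and the groups did not overlap. The change was 1.95 on the log2 scale (SE 0.44, limma adjusted p 0.014). The gene of its partner chain, Cd8b1, had 27.1 and 4.24 normalised counts in Control and 34.8, 87.3 and 62.5 in Prox1 OE, or a change in log2 of 2.27 (SE 0.73, limma adjusted p 0.048). The Control libraries were far apart in Cd8b1, at 33 and 5 reads, and the log2 fold change was 3.48 without Control replicate 1 and 1.06 without Control replicate 2. Cd8b1 was not called without Control replicate 2 (limma adjusted p 0.26), without Prox1 OE replicate 2 or 3 (0.15 and 0.11), with no filter (0.090), with limma without trend (0.091), with total-count scaling (0.057), with a pseudocount of 0.1 (0.0503) or with edgeR (0.075).

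Cd4 (ENSMUSG00000023274, chromosome 6, 124864692 to 124888221, minus strand), which macrophage and dendritic cells can also express, had 41.1 and 38.1 normalised counts in Control and 78.7, 88.5 and 59.0 in Prox1 OE. All Prox1 OE values were above both Control values. Its log2 fold change of 0.89 (SE 0.29) was not called by limma (adjusted p 0.052). It passed in 7 of 16 alternatives, namely DESeq2 on whole reads (adjusted p 0.033), TMM factors (0.049), upper-quartile factors (0.041), a pseudocount of 10 (0.048), limma without trend (0.037), the replicate block (0.035) and without Prox1 OE replicate 3 (0.047). It did not pass with edgeR (0.055).

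Foxp3 (ENSMUSG00000039521, chromosome X, 7573644 to 7595245, plus strand) was under the level needed for the test. It had 4.93 and 3.39 normalised counts in Control and 5.11, 11.8 and 20.8 in Prox1 OE, from 6, 4, 5, 10 and 18 reads. Prox1 OE replicate 1 had fewer reads than Control replicate 1, and their order in normalised counts came from the scaling. The difference of mean log2 values was 1.23 and did not pass in the fit without a filter on low genes (limma adjusted p 0.27). Its exons overlap those of other genes on both strands. Among the 10 regulatory T cell genes, 7 were tested, 0 were called higher and 1 lower (14.3% of those tested, near the 16.2% of all genes). The gene called lower was Ikzf2, which encodes the transcription factor Helios, at 86.3 and 124 normalised counts against 55.2, 51.9 and 62.5 (log2 fold change -0.86, limma adjusted p 0.048). Ctla4, an inhibitory receptor of regulatory and activated T cells and named after its values were seen, had 2 to 5 reads in every library.

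Granule genes were taken next. Gzmb encodes granzyme B, a protease that triggers death of target cells, and its promoter sequence is the one above with 4 motif matches. Gzmb (ENSMUSG00000015437, chromosome 14, 56258838 to 56262260, minus strand) had 13.1 and 5.93 normalised counts in Control and 36.8, 51.9 and 38.2 in Prox1 OE. The lowest Prox1 OE value was 2.8 times the highest Control value, on 7 and 16 reads in Control and 33 to 44 in Prox1 OE. The change was 2.11 on the log2 scale (SE 0.44, limma adjusted p 0.011). The Control mean of 9.54 was under the level for testing, so that Gzmb entered the test through Prox1 OE, and it was also called with no filter (adjusted p 0.025). Without Control replicate 2, which had the lower value, the log2 fold change was 1.60 and the adjusted p 0.074.

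Gzma encodes granzyme A, a protease with another cleavage preference that NK cells hold in quantity. Gzma (ENSMUSG00000023132, chromosome 13, 113093825 to 113100981, minus strand) had 18.1 and 26.3 normalised counts in Control and 34.8, 23.6 and 93.7 in Prox1 OE. Prox1 OE replicate 3 alone was far above Control and replicate 2 lay within the Control range. The log2 fold change of 0.94 (SE 0.58, limma adjusted p 0.25) did not pass, and it was 0.38 without Prox1 OE replicate 3.

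Nkg7 encodes a membrane protein of cytotoxic granules needed for their release. Nkg7 (ENSMUSG00000004612, chromosome 7, 43437073 to 43438249, plus strand) had 41.9 and 28.0 normalised counts in Control and 64.4, 99.1 and 133 in Prox1 OE. The groups did not overlap, and the change was 1.44 on the log2 scale (SE 0.38, limma adjusted p 0.024). Over the cytotoxic list of 12 genes, 11 were tested, of which 6 were called higher and 0 lower, with a median log2 fold change of 0.94, beside 17.1% and 16.2% of all genes tested. Relative to pan-leukocyte genes, 2 of the 11 were called higher and 0 lower, where 5.75% and 35.9% of all genes were. Gzmk, granzyme K, had 6.57 and 2.54 against 11.2, 30.7 and 27.8 normalised counts (log2 fold change 2.11, limma adjusted p 0.035). Like Gzmb, Gzmk and Prf1 had Control means under 10 (4.56 and 5.42) and entered the test through Prox1 OE, and with no filter neither was called (limma adjusted p 0.065 and 0.083). Ctsw, the protease cathepsin W of cytotoxic cells, changed by 1.60 (limma adjusted p 0.025), and was not called by limma without trend (0.051) or in 4 of the 5 leave-one-out fits. The pore-forming Prf1 and the broadly expressed lysosomal gene Lamp1, both named after their values were seen, were called higher at 1.44 and 0.69. The list was not uniform, since Gzmm, granzyme M, had 50.1 and 29.7 normalised counts in Control and 12.3, 35.4 and 25.5 in Prox1 OE, without passing (log2 fold change -0.76, limma adjusted p 0.28). Gzmm was also named after its values were seen.

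Ncr1 encodes NKp46, an activating receptor that defines NK cells and related innate lymphocytes. Ncr1 (ENSMUSG00000062524, chromosome 7, 4337724 to 4345164, plus strand) had 3.29 and 5.93 normalised counts in Control and 12.3, 3.54 and 18.5 in Prox1 OE, from 4, 7, 12, 3 and 16 reads. The groups overlapped, and no difference was detectable at this depth (difference of mean log2 values 0.95, limma adjusted p 0.44 in the fit without a filter). Of 18 NK cell genes, 10 were tested, 1 was called higher and 0 lower, with a median log2 fold change of 0.76, beside 17.1% and 16.2% of all genes. An unadjusted p under 0.05 was found for 5 of the 10, and the share of all genes at that cut was not counted. DESeq2 called 4 and edgeR 1, in either direction, where they called 6676 and 5738 of all 17105 genes. The called gene was Tyrobp, an adaptor that myeloid cells also express in quantity (log2 fold change 0.82, limma adjusted p 0.008). The NK receptor gene Klrb1c, named after its values were seen, overlapped between the groups at 17.3 and 14.4 against 19.4, 15.3 and 34.7 normalised counts.

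The 8 genes were also measured against general leukocyte genes. Of 10 pan-leukocyte genes, 3 were called higher (Cd37, Rac2 and Hcls1), 7 were not called and 0 were lower, where 17.1% of all genes tested were higher, with a median log2 fold change of 0.48. With the total count as library size, Cd37, Rac2 and Hcls1 lost their calls and the list median was 0.04, beside -0.44 for all genes. Ptprc, which encodes the leukocyte antigen CD45, had 805 and 612 normalised counts in Control and 1104, 713 and 892 in Prox1 OE. These overlapped and were not called (0.34 on the log2 scale, limma adjusted p 0.25). After the mean log2 level of the 10 pan-leukocyte genes was subtracted in each library, 3 of the 8 genes were called higher (Cd3g, Cd8a and Gzmb) and 0 lower. The background under this scaling was 5.75% of all genes called higher and 35.9% called lower. Relative to pan-leukocyte genes, the log2 fold changes were 1.63 for Gzmb (limma adjusted p 0.014), 1.47 for Cd8a (0.012) and 1.06 for Cd3g (0.042). The call of Cd3g on this scale was lost in 9 of 16 alternatives, among them a pseudocount of 10 (limma adjusted p 0.061), no filter (0.086), limma without trend (0.059) and the replicate block (0.088). Those of Nkg7, Cd3e, Gzma, Cd4 and Trac were 0.96, 0.66, 0.46, 0.41 and 0.03 and were not called. On this scale, 0 of the 8 were called by limma without Prox1 OE replicate 2 (5.02% of all genes called higher) or without Control replicate 2 (4.1%), with 3 and 1 at an unadjusted p under 0.05. Gzmb alone was called without Control replicate 1 (1.19%) and Cd8a alone when a mean of at least 50 was required (6.52%). Cd8a and Gzmb were called without Prox1 OE replicate 3 (3.76%), and Cd3g, Cd8a, Gzmb and Nkg7 without Prox1 OE replicate 1 (8.8%).

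**Figure D2:**
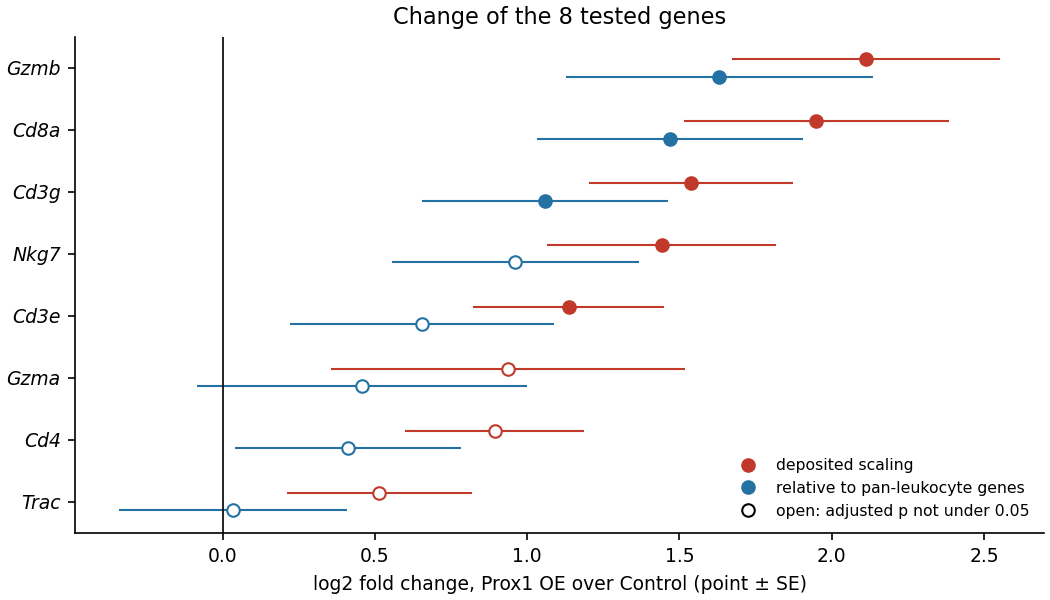
Log2 fold change of Prox1 OE over Control (horizontal axis, point ± SE) of the 8 tested genes, in red with the deposited scaling and in blue relative to 10 pan-leukocyte genes, with open points where the adjusted p was not under 0.05. Gzmb, Cd8a and Cd3g are filled in both colours, and Trac falls from 0.52 to 0.03.

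Ratios within a library were compared to ask whether the makeup of these genes differed. They were log2 ratios of normalised counts + 1, in which the scaling between libraries does not fully cancel for low genes such as Foxp3 and Ncr1, and were tested with an exact two-sided permutation test over the 5 samples, in which the smallest p possible is 0.1. Of 8 ratios, 1 had groups that did not overlap. This was Gzmb to Cd3e, at -0.66 and -1.50 in Control and -0.18, 0.17 and -0.31 in Prox1 OE. Its difference was 0.98 (exact permutation p 0.1, 0.64 adjusted over the 8 ratios). Cd8a to Cd4 was -0.35 and -0.93 in Control and -0.38, 0.75 and 0.87 in Prox1 OE, so that Prox1 OE replicate 1 resembled Control and the other 2 Prox1 OE libraries had more Cd8a than Cd4 reads. Its difference of 1.06 had an exact permutation p of 0.3. Foxp3 to Cd3e, Gzma to Cd3e and Ncr1 to Cd3e differed by 0.09, -0.20 and -0.18, with exact permutation p of 0.8, 0.8 and 0.9. Gzmb to Gzma, Nkg7 to Cd3e and Cd3g to Cd3e differed by 1.17, 0.31 and 0.40, with exact permutation p of 0.4, 0.4 and 0.3. No ratio could pass the threshold with this permutation test over 5 samples.

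**Figure D3:**
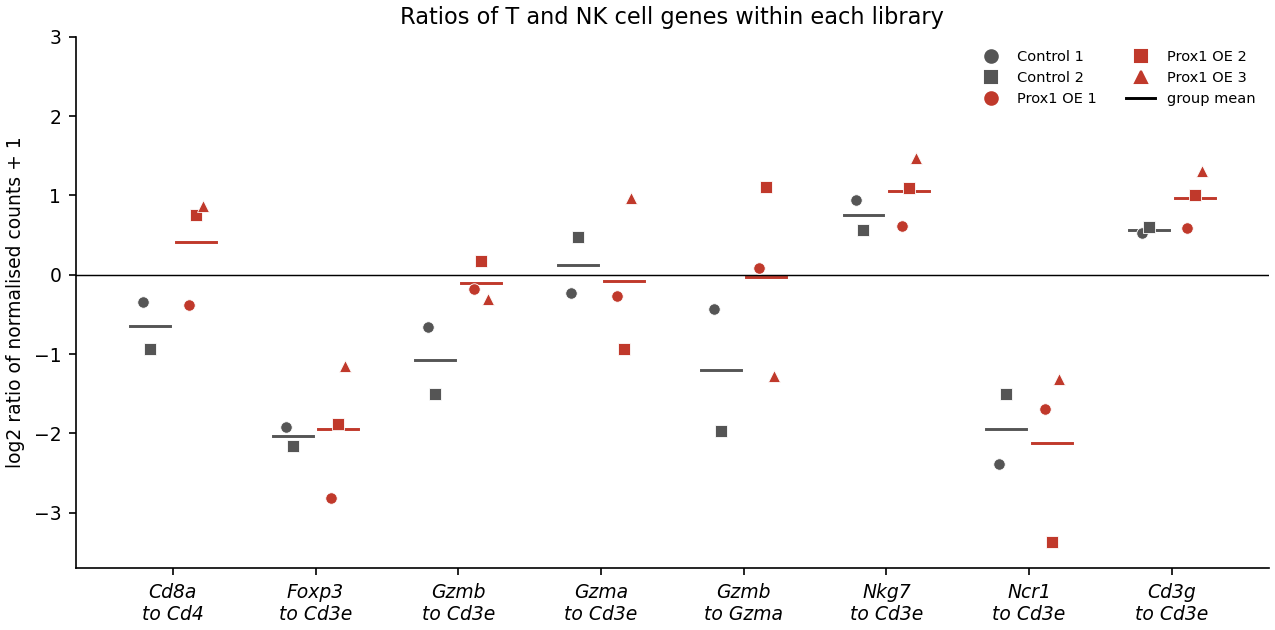
Log2 ratios of normalised counts + 1 between T and NK cell genes, with each point a library (grey for Control, red for Prox1 OE) and lines at group means. Gzmb to Cd3e is the one ratio with all Prox1 OE points above both Control points, and Cd8a to Cd4 lies above 0 in Prox1 OE replicates 2 and 3 alone.

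Levels of different genes were compared per kilobase of merged exons, which puts genes of unequal length on 1 scale. In Control, Trac was highest at 62.8 ± 8.08 normalised counts per kilobase (SD, n = 2), followed by Nkg7 at 38.2 ± 10.8 (SD, n = 2) and Gzma at 22.0 ± 5.77 (SD, n = 2). The other 7 genes lay between 0.909 for Foxp3 and 9.82 for Cd4. In Prox1 OE, Nkg7 was highest at 108 ± 37.6 per kilobase (SD, n = 3), Trac next at 91.8 ± 22.4 (SD, n = 3) and then Gzma at 50.4 ± 37.5 (SD, n = 3). The level of Gzma rested on Prox1 OE replicate 3, and without that library its mean was 29.0 per kilobase, beside 30.9 for Gzmb and 28.9 for Cd8a. The order of Nkg7 and Trac did not differ beyond their spread in Prox1 OE. Gzmb, Cd8a and Cd3g stood at 29.5 ± 5.82, 29.2 ± 12.3 and 28.1 ± 8.54 per kilobase in Prox1 OE (SD, n = 3) and could not be ordered. Cd3e, Ncr1 and Foxp3 were the lowest 3 in both groups. These are levels, not differences, and they rest on the annotated exon length.

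Other genes of T and NK cells were read from 11 lists of 114 genes in all, of which 93 were tested. Of these, 24 were called higher and 3 lower, or 25.8% and 3.23%, beside 17.1% and 16.2% of all genes tested. Leaving out the 10 genes described above, 19 of 85 tested were higher and 3 lower, with a median log2 fold change of 0.49. Relative to pan-leukocyte genes, 10 of the 93 were called higher and 10 lower, beside 5.75% and 35.9% of all genes. Scaling by the total count gave 14 higher and 12 lower, beside 8.62% and 39.9% of all genes. With no filter on low genes, under which no gene enters through Prox1 OE alone by its mean, 17 list genes were higher, beside 8.41% of the 28705 genes then tested. Of 50 called genes that were followed through the alternatives, 12 were called in every one, and among the T and NK cell lists these were Zap70, Themis, Cxcl9, Il18 and Tnf. Ikzf2 lost its call in 9 of 16 alternatives, Tcf7 in 8 of 16 and Gzmk in 6 of 15. Receptor signalling genes held the most calls together with the cytotoxic list, with 6 of 13 tested higher, 0 lower and a median of 1.27. Relative to pan-leukocyte genes, 3 of these 13 were higher and 1 lower.

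Zap70 encodes the kinase that CD3 chains recruit when the receptor is engaged. It had 35.3 and 46.6 normalised counts in Control and 144, 212 and 347 in Prox1 OE, or a change in log2 of 2.41 (SE 0.38, limma adjusted p 0.0044). The values were far apart, and the change was called relative to pan-leukocyte genes too (1.93). Cd2, an adhesion receptor of T and NK cells, went from 32.0 and 15.3 to 75.7, 63.7 and 70.6 normalised counts (log2 fold change 1.61, limma adjusted p 0.016). Themis, a regulator of signalling in developing T cells, changed by 1.42 (limma adjusted p 0.0027). It had 293 and 394 normalised counts in Control and 989.8, 839 and 907 in Prox1 OE. That is far above Cd3e, which had 21.4 and 18.6 in Control and 41.9 to 47.5 in Prox1 OE, and the source of the Themis reads was not tested. Lck, the kinase that acts before Zap70, and Thy1, which stromal cells also express, were named after their values were seen. Lck had 268 and 231 against 269, 320 and 241 normalised counts, so the groups overlapped, and Thy1 had 500.3 and 377 against 293, 334 and 239.6, or a change in log2 of -0.60 that did not pass (limma adjusted p 0.065).

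The counts of the remaining T cell lists stand beside 17.1% of all genes called higher and 16.2% called lower. In the coreceptor list of 7 genes 2 were higher, Cd8a and Cd8b1 (28.6%), with a median of 0.49. Relative to pan-leukocyte genes, 2 of these 7 were higher and 2 lower, beside 5.75% and 35.9% of all genes. The naive and memory list had 1 of 8 higher (12.5%), Tcf7, a transcription factor of naive and memory T cells (0.59, limma adjusted p 0.046), which edgeR did not call (adjusted p 0.055). The checkpoint list had 0 of 7 tested called by limma, with 1 at an unadjusted p under 0.05, 0 called by edgeR and 1 by DESeq2, and its highest gene by mean, Entpd1, changed by 0.10. Pdcd1, which encodes the inhibitory receptor PD-1 and was named after its values were seen, had 15.6 and 5.93 against 20.4, 30.7 and 63.7 normalised counts (log2 fold change 1.72, limma adjusted p 0.062). The gamma-delta receptor list had 0 of 6 tested called by limma, edgeR or DESeq2, with 1 at an unadjusted p under 0.05, and its most abundant gene, the transcription factor Sox13, changed by -0.11. The delta constant gene Trdc, also named after its values were seen, had 20.5 and 13.6 against 12.3, 4.72 and 9.26 normalised counts, which did not pass (-0.94, limma adjusted p 0.21).

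**Figure D4:**
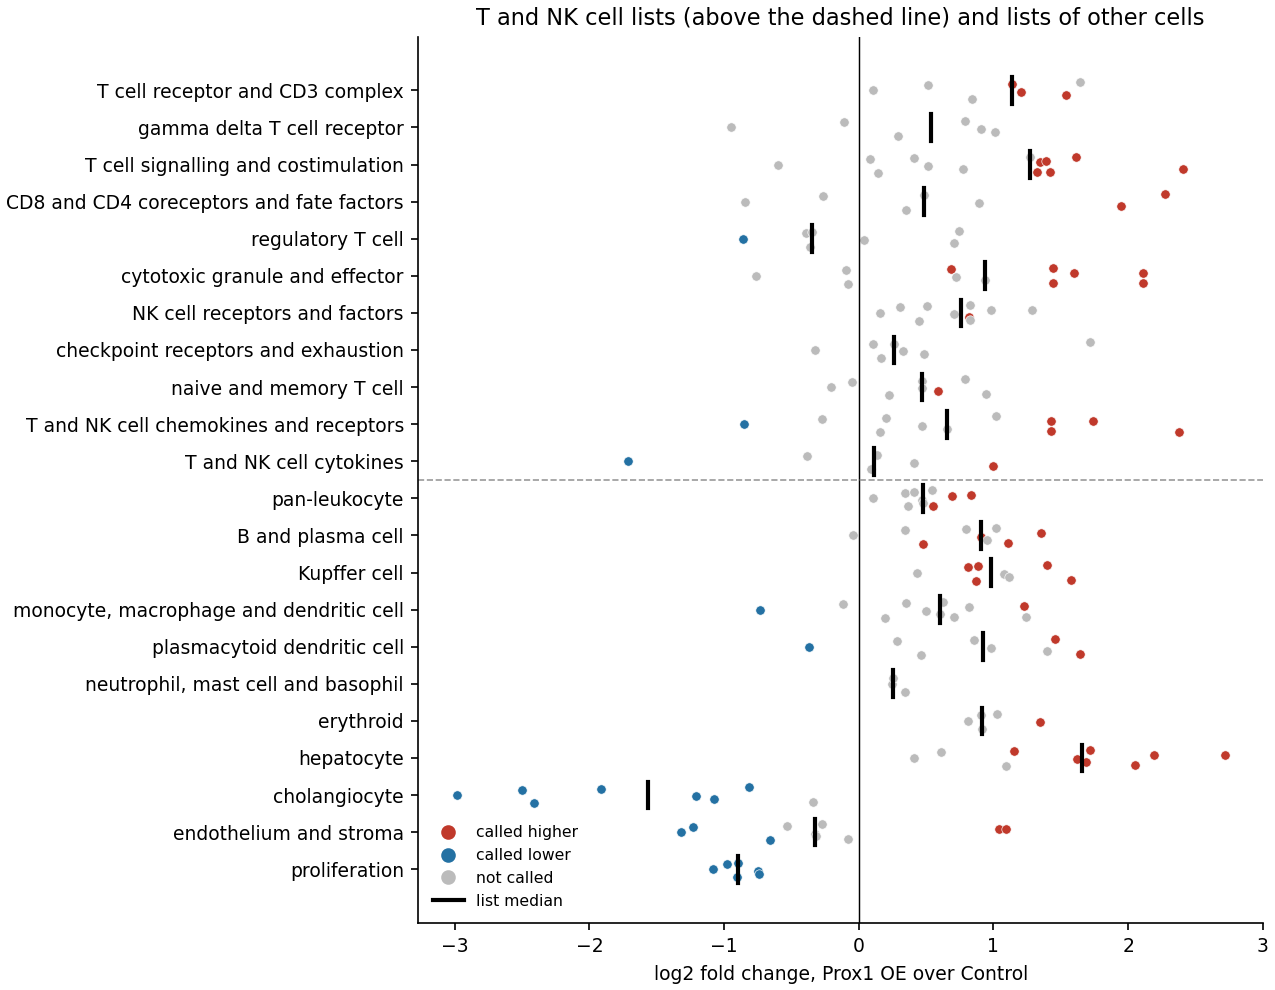
Log2 fold change of Prox1 OE over Control (horizontal axis) for each tested gene of the 22 lists, red where called higher, blue where called lower and grey where not called, with black bars at list medians. Among T and NK cell lists above the dashed line, signalling (1.27) and receptor genes (1.14) have the highest medians and regulatory T cell genes the lowest (-0.35). That lowest median covers 7 of 10 genes and leaves out Foxp3, which was under the level for testing (difference of mean log2 values 1.23). Below the dashed line hepatocyte genes stand at 1.65 and cholangiocyte genes at -1.56.

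Chemokines draw T and NK cells into tissue through receptors on their surface. Of 11 chemokine and receptor genes, 4 were called higher and 1 lower (36.4% and 9.09%, beside 17.1% and 16.2% of all genes). Relative to pan-leukocyte genes, 2 were higher and 2 lower, beside 5.75% and 35.9% of all genes. Cxcl9, an interferon-induced ligand of the receptor CXCR3, had 315 and 238 normalised counts in Control and 1055, 1302 and 2117 in Prox1 OE, and all 3 Prox1 OE values were above both Control values by a wide margin. The change was 2.38 on the log2 scale (SE 0.29, limma adjusted p 0.0027), and 1.90 relative to pan-leukocyte genes. Cxcr3, the receptor on activated T and NK cells, went from 18.9 and 22.0 to 44.0, 64.9 and 63.7 normalised counts (log2 fold change 1.43, limma adjusted p 0.016). Ccl5, a chemokine made by cytotoxic T and NK cells among others, had 97.8 and 67.0 against 196, 262 and 396 normalised counts (1.74, limma adjusted p 0.008). The other CXCR3 ligands were Cxcl11 and Cxcl10, and a difference between their changes was not tested. Cxcl11 was called higher at 1.42 (limma adjusted p 0.025), while Cxcl10 had 681 and 423 against 439, 426 and 471 normalised counts and was not called (-0.27, limma adjusted p 0.36). Both were named after their values were seen. Cxcl16, the ligand of CXCR6, fell from 5623 and 4752 to 2609, 3054 and 2955 normalised counts (-0.85, limma adjusted p 0.0041).

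**Figure D5:**
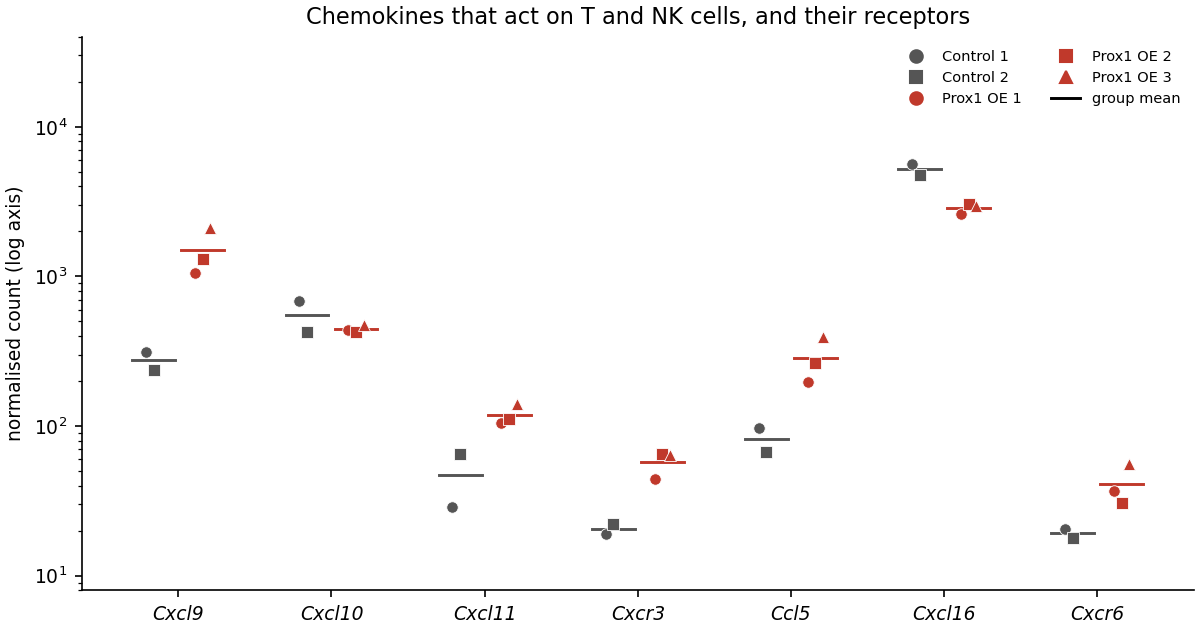
Normalised counts (log axis) of chemokine and receptor genes, with each point a library (grey for Control, red for Prox1 OE) and lines at group means. Cxcl9, Cxcl11, Cxcr3 and Ccl5 were called higher, Cxcl16 was called lower at 2609 to 3054 against 4752 and 5623, and Cxcl10 and Cxcr6 were not called.

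Of 10 genes of cytokines that act on these cells, 6 were tested, 1 was higher and 1 lower, which is near the background of 17.1% and 16.2% of all genes. Il18, which activates NK and T cells, had 448 and 407 normalised counts in Control and 764, 867 and 942 in Prox1 OE (log2 fold change 1.00, limma adjusted p 0.0039). Tnf, the inflammatory cytokine tumour necrosis factor, fell from 624 and 559 to 224, 158 and 163 (-1.71, limma adjusted p 0.0026). Ifng, the cytokine of activated T and NK cells and named after its values were seen, had 0 to 5 reads in every library, and no difference was detectable at this depth.

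Markers of other cells also changed, some lists higher and some lower, and their part in the result was not tested. Their counts stand beside 17.1% of all genes tested called higher and 16.2% called lower. Of 10 hepatocyte genes 7 were called higher and 0 lower, and their summed level was 1142573 and 1692690 normalised counts in Control against 3389041 to 4897060 in Prox1 OE. Of 8 Kupffer cell genes, which mark the resident macrophages of liver, 5 were called higher and 0 lower, with sums of 18544 and 20317 against 33993 to 46127. Clec4f and Cd5l, both made by Kupffer cells, changed by 1.58 and 1.39 (limma adjusted p 0.016 and 0.0037). Of 8 cholangiocyte genes 7 were called lower and 0 higher, and 6 of 6 proliferation genes were called lower. Among 10 B and plasma cell genes 9 were tested, 4 were higher and 0 lower, led by Ighm at 1.35 (limma adjusted p 0.011). Of 6 erythroid genes, which mark blood, 5 were tested, and all 5 had an unadjusted p under 0.05, a cut at which all genes were not counted. Alas2, an enzyme of haem synthesis in red cells, was called higher by limma (1.34, adjusted p 0.011). DESeq2 called 5 and edgeR 1, where they called 6676 and 5738 of all 17105 genes in either direction. The list sums were 4940.1 and 7495 normalised counts in Control against 12276, 8412 and 17919 in Prox1 OE. Of 10 endothelium and stroma genes, 2 were called higher (Stab2 and Lrat) and 3 lower (Col1a1, Col3a1 and Acta2). The medians were 1.65 for hepatocyte, 0.98 for Kupffer cell, 0.90 for B and plasma cell, 0.91 for erythroid, -0.32 for endothelium and stroma, 0.60 for monocyte, macrophage and dendritic cell and 0.25 for neutrophil, mast cell and basophil genes. No defining marker of hepatocytes, Kupffer cells or cholangiocytes was at 0 in any library.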

How the data were processed

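RNA was sequenced by the authors from dissected liver tumours in libraries made by the dUTP protocol, as pairs of 100 base reads, and mapped to mm10 with STAR. The counting tool, annotation and treatment of reads shared between gene copies are not given in the sources used here. The values deposited by the authors are a normalised signal: the count of each gene divided by its library's DESeq2 size factor. Whole reads were recovered from it, since 100% of values were within 0.01 of a whole multiple of 1 read. Every per-sample column was assigned by the labels. A table of the authors' own comparison (mean, shrunken log2 fold change, p-values) was not used.

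limma 3.58.1 (R 4.3.3; lmFit, eBayes with trend) was fitted to log2(normalised count + 1) of the 17105 genes with a mean of at least 10. Tests were two-sided, and p-values adjusted by Benjamini-Hochberg were called under 0.05. Changes on this scale understate those of low genes. edgeR 4.0.16 quasi-likelihood (5738 genes called, against 5702 with limma) and DESeq2 1.42.0 (6676) were run on recovered reads. In simulated counts for 17105 genes in this comparison, limma recovered 86% of 100 genes changed 4-fold and 47% of 100 changed 2-fold. Only these were changed, far fewer than the 5702 called in the data, and they were drawn from all expression levels. The rates therefore do not give the power for the low T and NK cell genes. Symbols, coordinates and exon lengths came from GENCODE M21 (GRCm38), which matched 99.5% of identifiers. Other scalings, pseudocounts, filters, a replicate block and leaving out each library were alternatives. Genes named are the 10 members, Prox1 and Ptprc, up to 3 called genes per direction of each list (or its most abundant gene), and the profiles most like Cd3e and Gzmb, and others are marked. Members and lists were chosen with earlier results of these data known. Read totals cover counting error only.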

Additional observations from a re-analysis of the deposited data

How the results depend on the processing

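The 8 tested genes kept a log2 fold change above 0 under every alternative that was run, other than relative to pan-leukocyte genes. With the total count as library size, 1475 genes were called higher and 6833 lower, and 14 genes of the T and NK cell lists were higher and 12 lower. A mean of at least 50 leaves fewer genes tested and drops Cd3e, Gzmb and Gzma. Under it 3 of the 5 genes then tested were called higher, and 1 relative to pan-leukocyte genes, beside 19.9% and 6.52% of all genes. Of the list genes 14 were called higher, and how many of them were then tested was not counted. Leaving out each of the 5 libraries in turn, 1158 to 7491 genes were called, 681 to 3738 higher and 477 to 3753 lower. In these fits 0 to 5 of the 10 genes were called higher, 0 to 4 relative to pan-leukocyte genes, and 5 to 33 list genes were higher and 1 to 3 lower. The shares of all genes called higher in each of these fits are given above. Of the T and NK cell list genes 93 were tested, and the 33 came without Prox1 OE replicate 1, where 21.9% of all genes were called higher. The cause of these shifts was not tested.

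Relative to pan-leukocyte genes, Trac changed sign with a pseudocount of 10 (-0.014), with the replicate block (-0.093) and without Prox1 OE replicate 2 or 3, with a leave-one-out range of -0.16 to 0.35. Gzma did so with the block (-0.16) and without Prox1 OE replicate 3 (leave-one-out range -0.16 to 0.87). With the total count as library size, Entpd1 was -0.33 and Csf3r -0.089. Foxp3 to Cd3e turned to -0.26 with a pseudocount of 10. Over the leave-one-out fits the ratios ranged from -0.31 to 0.52 for Foxp3 to Cd3e, from -0.72 to 0.23 for Gzma to Cd3e and from -0.62 to 0.44 for Ncr1 to Cd3e.

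Replicate numbers are shared between the groups, but no label ties them to an animal or day, and deviations from the group means correlated at 0.14 and 0.016 across genes in the 2 pairs. With the replicate block, which drops Prox1 OE replicate 3, 5246 genes were called. Depth limits Foxp3 and Ncr1, which had 3 to 18 reads per library.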

Other observations

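Plasmacytoid dendritic cells, which share Gzmb with cytotoxic lymphocytes, were covered by 8 genes, of which 2 were called higher and 1 lower (25% and 12.5%, beside 17.1% and 16.2% of all genes). Siglech, a surface marker of these cells, had 14.0 and 11.9 normalised counts in Control and 31.7, 33.0 and 48.6 in Prox1 OE (log2 fold change 1.46, limma adjusted p 0.023, not called in 6 of 15 alternatives). The other called higher was Ly6d, with 7642 and 8759 normalised counts in Control against 24179.9, 26723 and 25620.1 in Prox1 OE (1.64, limma adjusted p 0.0015). Its level was far above that of Siglech in every library, and the source of its reads was not tested. The gene called lower was Tcf4, a transcription factor of these cells (-0.37, limma adjusted p 0.04, not called in 8 of 16 alternatives). Of 11 monocyte, macrophage and dendritic cell genes, 1 was higher and 1 lower (9.09% each). Cd209a was called higher (1.23, limma adjusted p 0.046, not called in 7 of 15 alternatives) and Itgam lower (-0.73, limma adjusted p 0.023, not called in 4 of 16 alternatives). Neutrophil, mast cell and basophil genes were mostly under the level for testing, with 3 of 10 tested and 0 called by limma, edgeR or DESeq2 or at an unadjusted p under 0.05, and Csf3r, the most abundant, changed by 0.34.

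The genes whose profile over the 5 libraries was most like that of Cd3e, by the root mean square difference of centred log2 values among the 14069 genes with a mean of at least 50 (which leaves out low T cell genes such as Gzma, Foxp3 and Ncr1), were Cela1, Gm45083, Krt4, Pex11a and Chrna2, at differences of 0.06 to 0.07. None of them is in the T and NK cell lists. Those most like Gzmb were Snorc, Nup62cl, Gm826, Cd8a and Mogat1, at 0.24 to 0.32, so that 1 T cell gene was among them. With 5 libraries and many genes that differ between the groups, such likeness is weak.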
